A study of Bos taurus with 12 samples.

Results

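Cattle blastocysts collected on Day 7, before any transfer to a recipient, were compared between embryos produced in vitro by IVF and embryos produced in vivo in superovulated donors. The comparison used the arrays titled as Day 7 embryos, 6 of the 12 in the series, with 3 pools of each origin, and took in every probe set that was not a control. Each pool held 25 snap-frozen blastocysts, and 75 ng of total RNA was labelled per array by a protocol with more than 1 round of amplification. The other 6 arrays, 3 of each origin, came from pools of 5 Day 13 conceptuses recovered from synchronized heifers that had each received 10 Day 7 blastocysts. They served here for the spread between pools and as a later readout. The labels call the 3 arrays of a group biological replicates and do not say whether pools came from separate collections, so the tests measure the spread between these pools. Culture medium, oxygen level and donor breed are not given in the sources used here.

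A blastocyst consists of an outer trophectoderm, which forms the placenta, and an inner cell mass, from which the epiblast and the hypoblast arise. Embryos made by IVF take up their nutrients from a culture medium, whereas embryos made in vivo develop in the fluids of the oviduct and uterus. Sterol synthesis, oxygen sensing, sugar and amino acid metabolism and the handling of oxidants are pathways that cells are known to adjust to their surroundings. In pools of whole embryos, fewer cells of a type and less RNA per cell cannot be told apart.

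The arrays carried 24016 probe sets, of which 13292 had exactly 1 gene symbol, for 9155 symbols. Levels are log2 probe set intensities, and differences are in vitro minus in vivo on that scale. Background was set at 3.39, below which 99% of the values of 48 controls lay that target no bovine gene and no added RNA, and 41.3% to 42.0% of probe sets exceeded it on each array. Between any pair of the 6 Day 7 arrays Pearson's r over all probe sets, which are no independent replicates, was 0.967 to 0.991. In vitro replicate 2 correlated with in vivo replicate 2 at 0.986, higher than its 0.978 with in vitro replicate 3. The GAPDH 3' minus 5' difference, which reflects the reach of labelled RNA towards the 5' end, was 5.61 ± 0.04 (SD, n = 3) in vivo and 3.69 ± 0.43 in vitro, without overlap. That of cyclophilin was 4.86 ± 0.28 and 4.33 ± 0.25, with overlap. That of eIF-4E ran the other way, at 9.68 ± 0.38 in vivo and 9.91 ± 0.30 in vitro, also with overlap. The poly-A spike-ins averaged 14.6 ± 0.45 in vivo and 14.03 ± 0.64 in vitro. The 64 measured genes of cytosolic ribosomal proteins averaged 13.4 ± 0.18 in vivo and 13.96 ± 0.30 in vitro, without overlap. The part of these array measures in the results below was not tested beyond the refits given beside them.

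**Figure D1:**
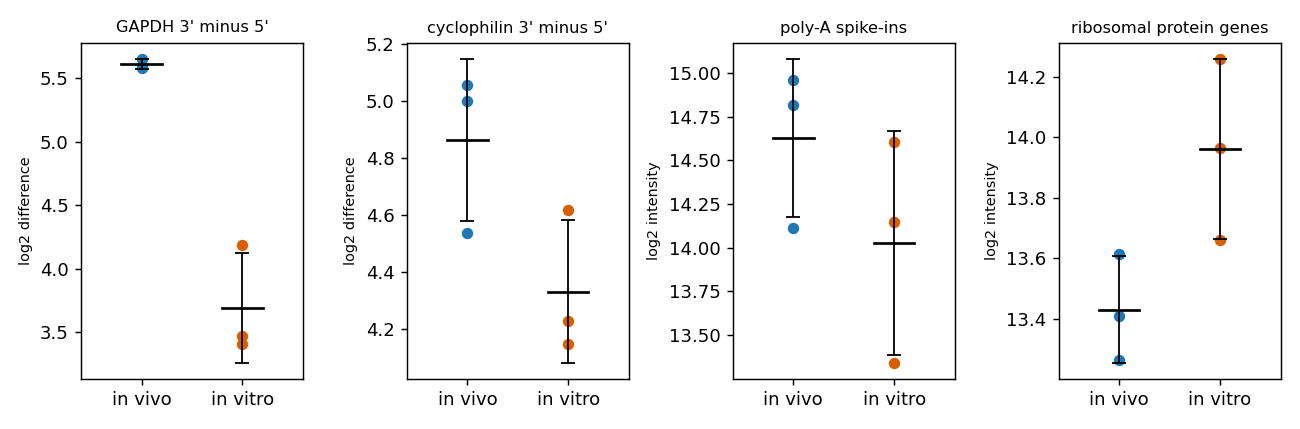
Array measures of the 6 Day 7 pools, in vivo and in vitro, on the log2 scale; dots are arrays, the bar is the mean and the whisker 1 SD (n = 3), and the vertical axes do not start at 0. The in vivo arrays lie close together at 5.61 ± 0.04 for GAPDH, above the in vitro arrays at 3.69 ± 0.43, while the poly-A spike-ins overlap between the groups.

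Most markers that define the labelled stage were measured above background. The keratin gene KRT18, an epithelial marker of trophectoderm, lay between 13.9 and 14.9 on all 6 arrays, and 14 of 18 measured trophectoderm genes exceeded background on every one. GATA6, a transcription factor of the hypoblast, lay between 13.1 and 14.1, and the pluripotency factor gene POU5F1 between 8.76 and 11.2. Of 20 measured hypoblast and endoderm genes 13 exceeded background on all 6 arrays. Another 6 lay at background on all 6 arrays: GATA4, HNF4A, AFP, TTR, APOA2 and BMP2. SOX2 exceeded background on 2 arrays only, in vivo replicate 1 (4.82) and in vitro replicate 3 (4.64). NANOG, CDX2, GATA3 and SOX17 were not analysed here, since no probe set carried those symbols alone.

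Between the origins 50 of 24016 probe sets (0.208%) passed an adjusted p below 0.05, 31 higher in vitro (0.129%) and 19 lower (0.0791%). Their differences ranged in size from 0.0286 to 5.75, with a median of 1.81, and 41 exceeded 1 on the log2 scale. The 50 included 30 with 1 gene symbol, 21 higher and 9 lower, and 20 without a symbol. The clearest named group among those higher was cholesterol synthesis, followed by single genes of the germline, the basement membrane, gap junctions and nitric oxide synthesis. Among those lower were the NODAL co-receptor gene CRIPTO, the antibody receptor gene FCGR2B and the lysine-degrading enzyme gene AASS. For all 50 the 3 in vitro arrays lay wholly on one side of the 3 in vivo arrays, as did 9.29% of all probe sets. In 18 of the 50, every array of one origin lay at background, and in 6 of these both origins did. Other probe sets of NOS2, FDFT1, HMGCS1, GJA1, PAPOLA, FER, SLC1A4 and PDCD7 lay at background on all 6 Day 7 arrays and did not pass. Those of STARD3NL and SLC28A3 differed in the same direction as the called ones without passing.

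These calls drew on the spread of all 4 groups. A fit to the 6 Day 7 arrays alone called 3 probe sets, of which 1 was among the 50, a probe set at background, and 1372 had an unadjusted p below 0.05 where the 12-array fit had 1602 (6.67%). Of the 50 calls 62.0% were higher in vitro, where 24 of 48 were after quantile normalization and 29.1% once the arrays were centred on ribosomal protein genes, which moved the median of all probe sets by -0.53. That share ran from 30.7% to 35.3% with 1 in vivo array left out and from 75.6% to 82% with 1 in vitro array left out. Of the 29 named genes 10 kept their call with ribosomal protein centring (CYP51A1, HMGCS1, MAEL, FMR1NB, CRIPTO, FCGR2B, AASS, SLC28A3, NDUFB2 and NEFL) and 8 with the GAPDH 3' minus 5' difference as a covariate (FDFT1, MAEL, PLOD2, NOS2, GJA1, SLC1A4, CRIPTO and MTFR1). That covariate does not overlap between the Day 7 origins, so it shares their contrast. With it all 50 differences kept their direction.

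**Figure D2:**
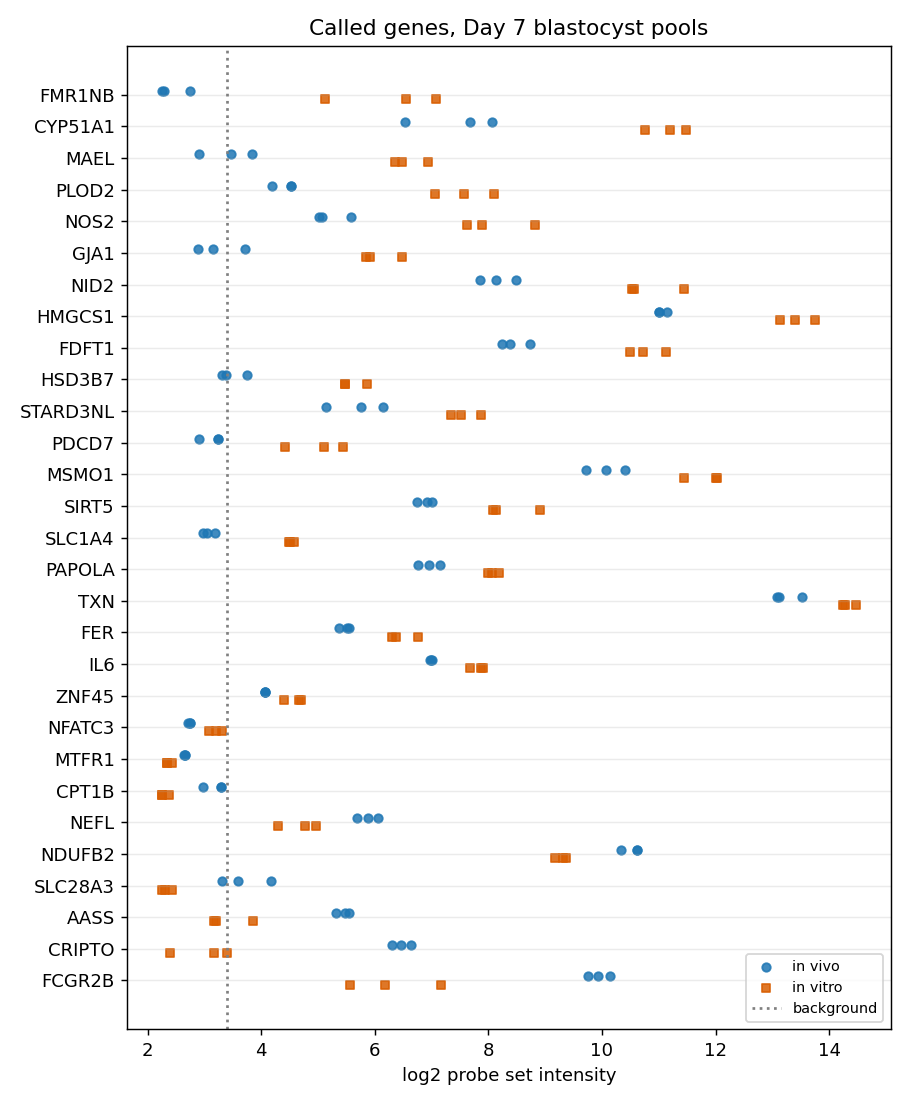
Log2 intensities of the 29 named genes that passed, on the 3 in vivo arrays (circles) and the 3 in vitro arrays (squares), ordered by their difference, with background as a dotted line. The origins do not overlap for any gene shown; among those with 1 origin at background are FMR1NB, SLC1A4 and PDCD7 (in vivo) and CRIPTO and SLC28A3 (in vitro), and NFATC3, CPT1B and MTFR1 lie at background on all 6 arrays.

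Genes of cholesterol synthesis were higher in the blastocysts made in vitro. Of 15 measured genes 4 passed as higher and 0 as lower, where 0.218% and 0.0765% of all symbols did. In 10 of the 15 the lowest in vitro value exceeded the highest in vivo value, against 8.73% of all symbols. The median difference was 1.76, and 0.00 over all symbols. Averaged over the 15 genes, the in vivo arrays lay at 7.37, 7.36 and 7.52 and the in vitro arrays at 9.14, 8.84 and 9.04. The pathway mean thus varied little among the pools of one origin.

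CYP51A1, the lanosterol demethylase of the late pathway, measured 6.54, 8.07 and 7.68 in the in vivo pools and 11.20, 11.48 and 10.75 in the in vitro pools, a difference of 3.72 ± 0.46 (SE, adjusted p = 0.0252). The spread of CYP51A1 was wider in vivo, with replicate 1 lowest. HMGCS1, which makes HMG-CoA at the head of the pathway, measured 11.005, 11.14 and 11.003 in vivo and 13.76, 13.40 and 13.13 in vitro (2.38 ± 0.29, adjusted p = 0.0252). FDFT1, the squalene synthase at the first step committed to sterols, measured 8.23, 8.73 and 8.38 in vivo and 10.72, 11.13 and 10.50 in vitro (2.33 ± 0.30, adjusted p = 0.0292). MSMO1, a methylsterol oxidase, measured 10.07, 9.72 and 10.41 in vivo and 12.01, 12.03 and 11.44 in vitro (1.76 ± 0.24, adjusted p = 0.0412). None of these 4 genes had an in vitro pool within the in vivo range.

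Another 6 genes of the pathway had origins that did not overlap but did not pass. They were the thiolase gene ACAT2 (2.42 ± 0.37, adjusted p = 0.0633), the squalene epoxidase gene SQLE (2.40 ± 0.37, adjusted p = 0.0652), the farnesyl diphosphate synthase gene FDPS (3.39 ± 0.58, adjusted p = 0.0905), NSDHL (1.09 ± 0.22), DHCR7 (2.08 ± 0.45) and PMVK (1.47 ± 0.33), named after their values were seen. MVK, MVD and LSS differed by 0.01 ± 0.05, -0.08 ± 0.14 and -0.31 ± 0.27, and TM7SF2 lay at background throughout. EBP differed by 1.16 ± 0.78, with in vitro replicate 2 (9.96) inside the in vivo range. Without in vitro replicate 1 none of the 4 calls passed, and without in vivo replicate 1 only that of CYP51A1 did. Over the single arrays left out, adjusted p reached 0.0886 for CYP51A1, 0.0834 for HMGCS1, 0.093 for FDFT1 (also above the threshold without in vivo replicate 3) and 0.155 for MSMO1 (also without replicate 2 of either origin).

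Genes that regulate, move or use sterols varied more. HSD3B7, an enzyme that turns cholesterol towards bile acids, measured 3.38, 3.74 and 3.31 in vivo and 5.47, 5.86 and 5.47 in vitro (2.12 ± 0.29, adjusted p = 0.0404). STARD3NL, a cholesterol-binding protein of late endosomes, measured 5.14, 6.14 and 5.76 in vivo and 7.34, 7.88 and 7.53 in vitro (1.90 ± 0.26, adjusted p = 0.0404). Both genes were higher in every in vitro pool. INSIG1, which retains the sterol sensor SCAP in the endoplasmic reticulum, measured 7.07, 6.36 and 4.87 in vivo and 9.64, 9.76 and 9.07 in vitro, yet its difference of 3.39 ± 0.72 did not pass (adjusted p = 0.186). Of the 18 measured genes of sterol regulation and uptake 0 passed, where 0.218% of all symbols passed as higher and 0.0765% as lower. Their median was 0.00. The ligase gene MYLIP, which targets the LDL receptor for degradation, differed the other way (-1.05 ± 0.54, adjusted p = 0.836). HSD3B7 no longer passed without any 1 array other than in vivo replicate 2 (adjusted p up to 0.116). STARD3NL no longer passed without in vivo replicate 3 or any 1 in vitro array (up to 0.1002).

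Over all symbols 0.218% passed as higher and 0.0765% as lower. Of 23 measured genes of fatty acid synthesis and 21 of lipid droplets and lipid transport 0 passed. The origins separated with in vitro higher in 4 and lower in 1 of the former, and in 2 and 0 of the latter. Over all symbols the shares were 8.73% and 4.4%. Above background on at least 3 Day 7 arrays were 17 of the former and 7 of the latter, and over all such symbols the shares were 13.3% and 6.22%. The stearoyl-CoA desaturase gene SCD differed by 1.06 ± 0.39, the lipid droplet coat gene PLIN2 by 0.88 ± 0.26 and the fatty acid carrier gene FABP5 by 1.05 ± 0.34, with adjusted p of 0.646, 0.469 and 0.572. Of 19 genes of fatty acid oxidation 1 passed, as lower, where 0.0765% of all symbols did. CPT1B, the muscle form of the carnitine palmitoyltransferase that admits fatty acids to mitochondria, measured 3.29, 3.29 and 2.97 in vivo and 2.26, 2.26 and 2.37 in vitro (-0.88 ± 0.08, adjusted p = 0.0048). All 6 values of CPT1B lay at or below background, so no fold is given.

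Genes that respond to low oxygen were higher in vitro in many members, although few passed. Of 20 measured genes 1 passed as higher and 0 as lower, where 0.218% and 0.0765% of all symbols did. The in vitro arrays lay wholly above the in vivo arrays in 10 genes and wholly below in 0, where the shares over all symbols were 8.73% and 4.4%. The median difference was 0.81, which became 0.28 after ribosomal protein centring and 1.13 with the GAPDH covariate. Averaged over the 20 genes, the in vivo arrays lay at 6.31, 6.44 and 6.40 and the in vitro arrays at 7.54, 7.81 and 7.27. In vitro replicate 2 was the highest of its group, and the origins did not overlap.

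PLOD2, a lysyl hydroxylase of collagen, measured 4.53, 4.53 and 4.20 in vivo and 7.57, 8.10 and 7.05 in vitro (3.15 ± 0.39, adjusted p = 0.0259). In vivo replicates 1 and 2 had the identical value 4.53188, and whether it is a lower limit of that probe set was not tested. A second PLOD2 probe set lay at background in both origins. BNIP3, a receptor for the removal of mitochondria, measured 9.87, 10.18 and 10.00 in vivo and 11.44, 11.83 and 11.30 in vitro (1.51 ± 0.23, adjusted p = 0.0618). VEGFA, the vascular growth factor, measured 3.64, 4.62 and 4.82 in vivo and 6.09, 6.52 and 7.15 in vitro (2.22 ± 0.39, adjusted p = 0.1). PLOD2 passed, and BNIP3 and VEGFA separated by origin without passing. MXI1, an antagonist of MYC, lay at background in vivo (2.23, 2.77 and 2.23) and at 5.39, 6.33 and 3.87 in vitro, at least 3.50-fold higher (adjusted p = 0.112). P4HA2, a collagen prolyl hydroxylase, had the largest difference of the list and was named for it: 2.63, 4.97 and 5.84 in vivo and 8.45, 8.49 and 8.61 in vitro (4.04 ± 0.76, adjusted p = 0.122). HIF1A, the gene of an oxygen-regulated transcription factor subunit, differed by 1.15 ± 0.50 (adjusted p = 0.746), and the oxygen sensor hydroxylase gene EGLN1 by 0.10 ± 0.46. The call of PLOD2 was lost without in vivo replicate 1 or 3 or in vitro replicate 1 (adjusted p up to 0.089).

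Of 24 measured glycolysis genes 0 passed, where 0.218% of all symbols passed as higher and 0.0765% as lower. In 8 of the 24 every in vitro array exceeded every in vivo array and in 0 the reverse held, against 8.73% and 4.4% of all symbols. The list's median of 0.60 became 0.07 after ribosomal protein centring and turned to -0.19 with the GAPDH 3' minus 5' difference as a covariate, a measure made from a gene of this pathway. LDHA, which makes lactate, measured 12.43, 12.51 and 12.31 in vivo and 13.63, 14.08 and 13.30 in vitro (1.25 ± 0.22, adjusted p = 0.093). The in vivo pools of LDHA lay close together, all below the in vitro pools. TPI1, the triose phosphate isomerase, measured 6.11, 4.17 and 6.77 in vivo and 10.77, 9.39 and 10.80 in vitro (4.64 ± 0.87, adjusted p = 0.123). ALDOC, an aldolase, lay at background in vivo and at 4.39, 3.52 and 4.51 in vitro (adjusted p = 0.315). The glucose transporter gene SLC2A1 differed by 0.51 ± 0.43 (-0.58 with the GAPDH covariate), with in vivo replicate 3 (10.32) above all in vitro arrays, and SLC2A3 lay at background. The lactate transporter gene SLC16A3 differed by -0.18 ± 0.54.

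**Figure D3:**
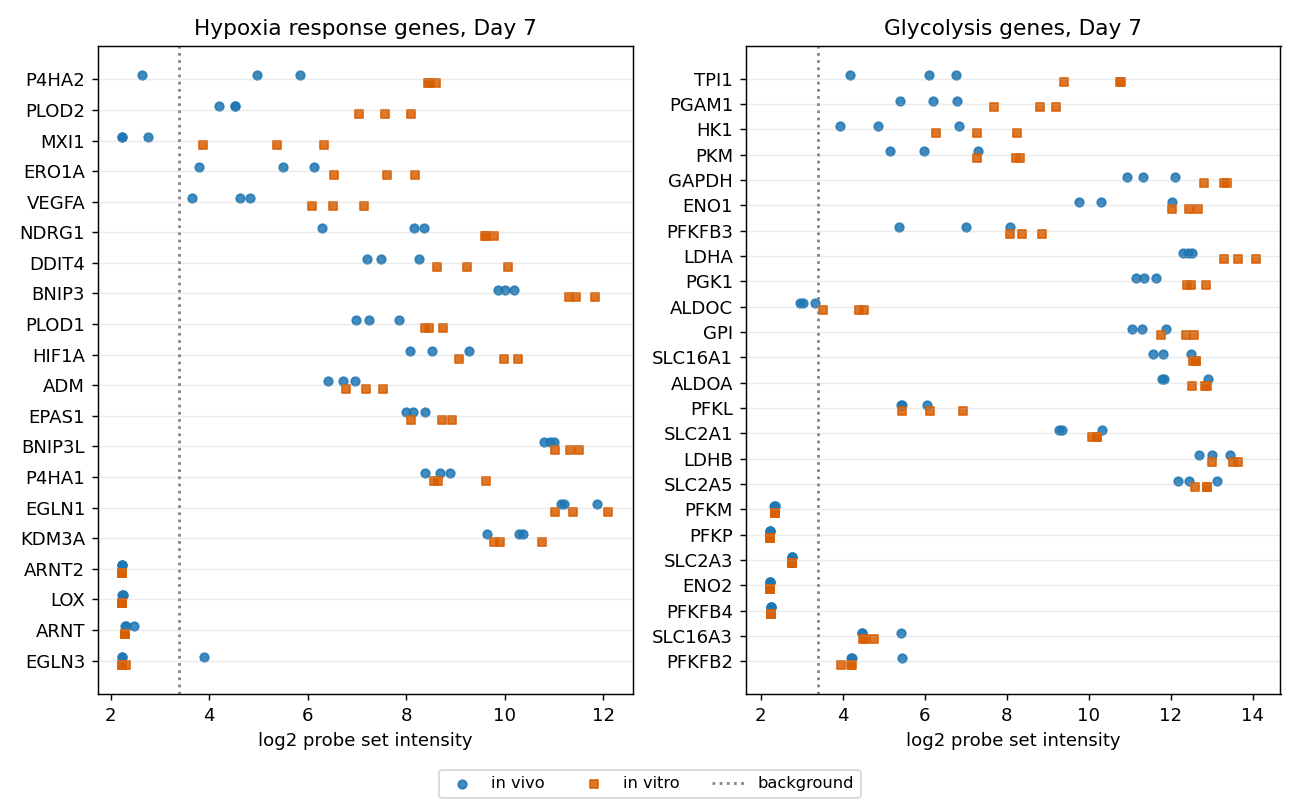
Log2 intensities of all 20 measured hypoxia response genes and all 24 measured glycolysis genes on the Day 7 in vivo (circles) and in vitro (squares) arrays, ordered by their difference, with background as a dotted line. The in vitro arrays lie wholly above the in vivo arrays in 10 genes on the left and 8 on the right, and 1 gene of these passed, PLOD2.

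The enzymes that make serine from a glycolytic intermediate showed large differences that did not pass. PHGDH, which commits carbon to serine, measured 4.07, 4.07 and 5.05 in vivo and 8.93, 8.01 and 7.43 in vitro (3.73 ± 0.60, adjusted p = 0.0789). PSAT1, the next enzyme, measured 7.46, 9.14 and 9.91 in vivo and 12.31, 12.49 and 11.26 in vitro (3.19 ± 0.73, adjusted p = 0.24). PSPH, the last step, measured 6.14, 6.41 and 8.73 in vivo and 9.26, 10.13 and 8.71 in vitro (2.28 ± 0.76, adjusted p = 0.593). PHGDH and PSAT1 separated by origin, while in vivo replicate 3 overlapped the in vitro pools for PSPH. SLC1A4, a carrier of serine and other small neutral amino acids, did pass. It lay at background in vivo (3.04, 2.98 and 3.18) and at 4.50, 4.49 and 4.58 in vitro, at least 2.19-fold higher (adjusted p = 0.000376).

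PHGDH, PSAT1 and PSPH belong to the list of the amino acid response and tRNA synthetases, which had 0 of 25 called. Over all symbols 0.218% were called as higher and 0.0765% as lower. The list's median was 0.49, or -0.04 after ribosomal protein centring, and 6 genes separated higher and 0 lower, against 8.73% and 4.4% of all symbols. ATF4, the transcription factor of that response, differed by 0.99 ± 0.37 (9.28, 9.12 and 9.97 in vivo, 10.28, 10.23 and 10.85 in vitro, adjusted p = 0.658). TRIB3, another gene known to respond to amino acid shortage, ran the other way, above background in each in vivo pool (3.67, 3.47 and 4.72) and at background in each in vitro pool. AASS, which starts lysine breakdown in mitochondria, was lower in vitro. It measured 5.32, 5.55 and 5.48 in vivo and 3.21, 3.86 and 3.16 in vitro (-2.04 ± 0.19, adjusted p = 0.00562), so that only in vitro replicate 2 exceeded background. In one-carbon metabolism, the mitochondrial SHMT2 differed by 2.34 ± 0.83 and the cytosolic SHMT1 by -0.46 ± 0.14, with adjusted p of 0.623 and 0.469. The calls of SLC1A4 and AASS held with each Day 7 array left out (adjusted p up to 0.0014 and 0.0200).

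Genes of the respiratory chain, the ribosome and the proteasome had medians above 0 with few calls. Ribosomal protein centring lowers all probe sets alike by 0.53, so medians of about that size come to lie near 0 under it. Of 67 genes of oxidative phosphorylation 0 passed as higher and 1 as lower, where 0.218% and 0.0765% of all symbols did. The list's median of 0.55 became 0.41 after quantile normalization, 0.02 after ribosomal protein centring and -0.11 with the GAPDH covariate. In 22 of the 67 the in vitro arrays lay wholly above and in 1 wholly below the in vivo arrays, where 8.73% and 4.4% of all symbols did so, and 13.3% and 6.22% of symbols above background on at least 3 Day 7 arrays, as all 67 were. That 1 was NDUFB2, a subunit of complex I, which measured 10.62, 10.62 and 10.33 in vivo and 9.32, 9.37 and 9.18 in vitro (-1.23 ± 0.17, adjusted p = 0.0412). Its other probe set differed by 0.79 ± 0.42 (adjusted p = 0.836), so the direction for NDUFB2 is uncertain. NDUFB3, of the same complex, differed by 0.87 ± 0.21 (adjusted p = 0.279), and the ATP synthase subunit gene ATP5PD by 0.98 ± 0.33 (adjusted p = 0.622). The NDUFB2 call was lost without any one Day 7 array other than in vivo replicate 3 (adjusted p up to 0.135).

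Of 64 ribosomal protein genes 0 passed, where 0.218% of all symbols passed as higher and 0.0765% as lower. In 31 the in vitro arrays lay wholly above the in vivo arrays and in 0 below, against 8.73% and 4.4% of all symbols. The median was 0.48, or 0.24 after quantile normalization and 0.03 with the GAPDH covariate. RPS20 measured 13.89, 13.68 and 13.97 in vivo and 14.85, 14.69 and 15.11 in vitro (1.03 ± 0.17, adjusted p = 0.0789). RPL30 differed by 0.45 ± 0.07 (adjusted p = 0.0789). By contrast 27 measured genes of ribosome biogenesis had a median of 0.01, with NOLC1 at -0.61 ± 0.16 and NCL at 0.50 ± 0.20, neither of which passed. Of 28 proteasome genes 0 passed, against 0.218% of all symbols as higher and 0.0765% as lower. Their median of 0.46 was 0.38 after quantile normalization and turned to -0.07 after ribosomal protein centring and to -0.47 with the GAPDH covariate.

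Among genes that handle oxidants, TXN, which encodes the small redox protein thioredoxin, was higher in vitro. It measured 13.09, 13.11 and 13.53 in vivo and 14.28, 14.25 and 14.47 in vitro (1.09 ± 0.15, adjusted p = 0.0404). It was the only one of 31 measured genes of this list to pass, where 0.218% of all symbols passed as higher. In 9 genes the origins separated with in vitro higher and in 2 with in vitro lower, against 8.73% and 4.4% of all symbols. SOD1, the cytosolic superoxide dismutase, measured 8.46, 9.25 and 9.55 in vivo and 11.13, 10.92 and 11.73 in vitro (2.17 ± 0.40, adjusted p = 0.112). SOD2, the mitochondrial form, measured 11.37, 11.99 and 11.77 in vivo and 11.04, 11.34 and 10.51 in vitro (-0.75 ± 0.36, adjusted p = 0.833). The cytosolic form therefore lay higher and the mitochondrial form lower in every in vitro pool, neither passing. The list's median of 0.20 was -0.33 after ribosomal protein centring and -0.27 with the GAPDH covariate. The TXN call was lost without any one Day 7 array other than in vivo replicate 3 (adjusted p up to 0.124).

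NOS2, the inducible nitric oxide synthase, measured 5.02, 5.58 and 5.07 in vivo and 7.89, 8.82 and 7.62 in vitro (2.89 ± 0.36, adjusted p = 0.0276). IL6, a cytokine that acts through STAT3, measured 7.00, 7.00 and 6.98 in vivo and 7.90, 7.87 and 7.68 in vitro (0.82 ± 0.06, adjusted p = 0.00207). Both genes were higher in every in vitro pool, and the 3 in vivo values of IL6 nearly coincided. STAT3 measured 8.85, 8.34 and 9.95 in vivo and 7.22, 7.54 and 7.97 in vitro, lower in every in vitro pool without passing (-1.47 ± 0.38, adjusted p = 0.359). NOS2 and IL6 were the 2 genes called among 26 of inflammation and NF-kB signalling, where 0.218% of all symbols passed as higher. The list had a median of 0.00. NOS2 no longer passed without in vivo replicate 1 or 3 or in vitro replicate 1 (adjusted p up to 0.0776). IL6 passed with each Day 7 array left out but was lost after ribosomal protein centring (0.29, adjusted p = 0.367).

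A few germline genes were higher in vitro, and most lay at background. MAEL, a protein of the piRNA pathway that restrains transposons in germ cells, measured 2.91, 3.47 and 3.83 in vivo and 6.47, 6.93 and 6.35 in vitro (3.18 ± 0.22, adjusted p = 0.00143). Its 2 other probe sets differed by 1.72 ± 0.52 and 1.14 ± 0.54, and neither passed. FMR1NB, known as a cancer and testis antigen, lay at background in vivo (2.25, 2.28 and 2.74) and at 6.56, 5.12 and 7.08 in vitro, at least 7.27-fold higher (adjusted p = 0.0159). These 2 were the genes called of 16 measured, where 0.218% of all symbols passed as higher. In 4 of the 16 the origins separated with in vitro higher and in 0 with in vitro lower, against 8.73% and 4.4%. GTSF1, a partner of piRNA proteins, measured 7.30, 7.04 and 7.50 in vivo and 9.18, 8.51 and 9.46 in vitro without passing (1.77 ± 0.39, adjusted p = 0.224). The meiotic gene SYCP3, named after its values were seen, differed by 0.95 ± 0.54. The oocyte genes GDF9, BMP15, MOS, ZP2, ZP3, ZP4 and NLRP5 lay at background on all 6 arrays. Without in vitro replicate 1 the adjusted p of FMR1NB was 0.0533.

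In the lineage lists calls were few and ran both ways. CRIPTO, the co-receptor through which NODAL signals in the early embryo, was lower in vitro. It measured 6.31, 6.46 and 6.64 in vivo and 3.39, 2.39 and 3.16 in vitro, at least 8.46-fold lower (adjusted p = 0.00257). All in vitro values lay at background, the highest of them just at its limit. CRIPTO was the only one called of 6 pluripotency and inner cell mass genes, where 0.0765% of all symbols passed as lower. POU5F1 measured 9.01, 8.76 and 10.20 in vivo and 11.22, 9.89 and 11.22 in vitro (1.45 ± 0.76, adjusted p = 0.836), with in vitro replicate 2 inside the in vivo range. The CRIPTO call held with each Day 7 array left out (adjusted p up to 0.0071) and with the GAPDH covariate (adjusted p = 0.0376).

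Of 18 trophectoderm genes 0 passed, where 0.218% of all symbols passed as higher and 0.0765% as lower. Their median was -0.08. SSLP1, a secreted trophoblast gene, measured 9.08, 8.40 and 8.30 in vivo and 6.53, 5.77 and 7.78 in vitro (-1.90 ± 0.50, adjusted p = 0.363), whereas PLAC8A measured 12.09, 12.31 and 12.80 in vivo and 12.84, 12.96 and 13.25 in vitro (0.62 ± 0.24, adjusted p = 0.69). Both separated by origin, in opposite directions. KRT19 differed by 1.66 ± 0.69, ASCL2 by -0.04 ± 0.25 and the interferon tau gene IFNT2, the ruminant pregnancy signal, by 0.18 ± 0.84. ELF5 lay at background on all 6 arrays.

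Of 20 hypoblast and endoderm genes 1 passed, as higher, where 0.218% of all symbols did. NID2, a basement membrane protein, measured 7.86, 8.13 and 8.48 in vivo and 10.53, 11.44 and 10.57 in vitro (2.69 ± 0.31, adjusted p = 0.0192). LAMB1, a laminin chain of the same membrane, measured 8.42, 9.10 and 9.32 in vivo and 9.82, 10.38 and 10.58 in vitro (1.31 ± 0.35, adjusted p = 0.374). PDGFRA, a receptor that marks hypoblast, measured 11.89, 11.25 and 11.0004 in vivo and 9.75, 10.13 and 9.02 in vitro (-1.75 ± 0.53, adjusted p = 0.486). The list split both ways: NID2 and LAMB1 lay higher in every in vitro pool and PDGFRA and the fibronectin gene FN1 lower, of which only NID2 passed. FN1 ranged from 13.97 to 14.37 in vivo and from 13.47 to 13.57 in vitro, and the other membrane genes measured, NID1, LAMC1 and COL4A1, overlapped between the origins. These 4 were named after their values were seen. GATA6 differed by -0.04 ± 0.42. The summed level of the 20 genes ran from 145.8 to 149.5 in vivo and from 147.9 to 149.8 in vitro. The call of NID2 held with each Day 7 array left out (adjusted p up to 0.0451) and was lost after ribosomal protein centring (2.16, adjusted p = 0.081).

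GJA1, the gap junction protein connexin 43, measured 3.15, 2.89 and 3.71 in vivo and 5.84, 6.47 and 5.92 in vitro (2.83 ± 0.38, adjusted p = 0.0404). It was the only one called of 28 measured genes of junctions, pumps and water channels, where 0.218% of all symbols passed as higher. In vivo GJA1 exceeded background in replicate 3 alone, so its difference rests in part on values at background. The connexin gene GJB5 differed by 1.09 ± 0.41 (adjusted p = 0.667), the water channel gene AQP3 by 0.76 ± 0.75, the sodium pump subunit gene ATP1B1 by -0.21 ± 0.23 and the cadherin gene CDH1 by -0.32 ± 0.41. Without in vivo replicate 1 or 2 or any in vitro array GJA1 no longer passed (adjusted p up to 0.102). In the solute carrier list, SLC28A3, a nucleoside transporter, measured 3.59, 3.31 and 4.17 in vivo and 2.30, 2.42 and 2.26 in vitro, at least 1.23-fold lower (adjusted p = 0.0367). It was close to background in vivo, and its call was lost without in vivo replicate 1 or in vitro replicate 1 or 3 (adjusted p up to 0.12). The phosphate carrier gene SLC20A1 differed by -1.08 ± 0.33 (adjusted p = 0.504).

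FCGR2B, an inhibitory receptor for antibodies best known from B cells and macrophages, was lower in vitro. It measured 9.94, 10.15 and 9.76 in vivo and 5.57, 6.17 and 7.17 in vitro (-3.64 ± 0.40, adjusted p = 0.0159). The in vivo values lay close together, well above all in vitro values. Of 20 measured leukocyte markers 16 lay at background on all 6 arrays, among them PTPRC, CD3D, CD3E, CD14, CD53, LCP1, LAPTM5 and TYROBP. The 4 above it were FCGR2B, CD48, CD52 and ZAP70. CD48 ranged from 11.8 to 12.2 in vivo and from 12.2 to 12.6 in vitro, and ZAP70, a kinase gene, differed by 0.48 ± 0.18 (adjusted p = 0.671). The summed level of the list ran from 71.6 to 72.1 in vivo and from 68.2 to 69.8 in vitro, and without FCGR2B itself from 61.6 to 62.1 in vivo and from 62.5 to 62.65 in vitro. The FCGR2B call held with each Day 7 array left out (adjusted p up to 0.0368) and was lost with the GAPDH covariate (-3.14, adjusted p = 0.237).

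Markers of the other cells that could accompany an embryo lay partly at background and partly above it. Of 18 cumulus and granulosa markers 12 lay at background on all 6 arrays, including AMH, FSHR, LHCGR, FOXL2 and CYP19A1, and the summed level ran from 58.3 to 61.5 in vivo and from 55.7 to 57.8 in vitro. HAS2, which makes hyaluronan, measured 8.62, 8.32 and 8.36 in vivo and 7.67, 7.52 and 7.86 in vitro (-0.75 ± 0.21, adjusted p = 0.422). HSD3B1 and STAR also exceeded background on all 6 arrays. HSD3B1 ran from 6.1 to 8.7 in vivo and from 7.4 to 8.2 in vitro, and STAR from 4.6 to 6.5 and from 4.2 to 5.1. Of 12 markers of oviduct and uterine epithelium 6 lay at background throughout, PAEP, LTF and ESR1 among them, with summed levels of 40.99 to 43.1 in vivo and 41.6 to 44.1 in vitro. OVGP1, the oviduct glycoprotein, lay between 3.49 and 3.86 in vivo and between 2.92 and 3.73 in vitro. MSX1, SPP1 and TEKT1 exceeded background on all 6 arrays. They ran from 8.9 to 10.96, 3.4 to 4.8 and 4.28 to 4.45 in vivo. In vitro they ran from 9.2 to 9.5, 4.2 to 6.7 and 4.25 to 4.34. Of 8 sperm markers 5 lay at background throughout, with summed levels of 30.5 to 32.8 in vivo and 29.6 to 34.6 in vitro. The others were ODF2 (9.6 to 10.2 in vivo, 9.2 to 9.9 in vitro), TNP1 (5.8 to 6.8, 4.4 to 5.97) and PRM1 (3.1 to 4.4, 3.8 to 7.9). Of 9 red cell markers 6 lay at background throughout, including HBA and SLC4A1, with sums of 31.6 to 33.4 in vivo and 24.8 to 33.8 in vitro. The others were HBB (6.7 to 7.8 in vivo, 5.1 to 8.5 in vitro), HBG (7.4 to 7.7, 4.0 to 9.0) and ALAS2 (2.7 to 5.2, 2.3 to 2.7). The part of such cells in the results was not tested.

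The remaining named calls were single genes of unrelated function. PAPOLA, the poly(A) polymerase that adds tails to messenger RNA, measured 7.15, 6.75 and 6.96 in vivo and 7.99, 8.18 and 8.06 in vitro (1.12 ± 0.11, adjusted p = 0.0122). It was the only one called of 27 genes of mRNA processing, where 0.218% of all symbols passed as higher. In that list CPSF6 differed by 0.76 ± 0.18 and CPSF3 by -0.41 ± 0.10 without passing. FER, a tyrosine kinase, measured 5.54, 5.37 and 5.51 in vivo and 6.37, 6.29 and 6.75 in vitro (1.001 ± 0.11, adjusted p = 0.0176). SIRT5, a mitochondrial enzyme that removes succinyl groups, measured 6.75, 6.92 and 7.01 in vivo and 8.90, 8.14 and 8.07 in vitro (1.48 ± 0.21, adjusted p = 0.0412). Within each of these genes all in vitro pools exceeded all in vivo pools. PDCD7 lay at background in vivo and at 5.10, 4.41 and 5.45 in vitro, at least 3.03-fold higher (adjusted p = 0.0404). NEFL, the light neurofilament chain, measured 6.06, 5.89 and 5.69 in vivo and 4.77, 4.29 and 4.96 in vitro (-1.20 ± 0.17, adjusted p = 0.0412), and its second probe set differed by -1.75 ± 0.59 without passing (adjusted p = 0.608).

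The last 3 named calls were small or dim. ZNF45, a zinc finger gene, measured 4.06 in each in vivo pool and 4.66, 4.41 and 4.70 in vitro (0.53 ± 0.07, adjusted p = 0.0397), a difference that was gone after ribosomal protein centring (-0.0034). Its in vivo values were identical (4.06201), as were those of Day 13 in vivo replicate 2 and Day 13 in vitro replicate 3. Whether that value is a lower limit of the probe set was not tested. NFATC3 passed at a probe set with all 6 arrays below background (0.47 ± 0.05, adjusted p = 0.0132), which turned to -0.07 with ribosomal protein centring, while its brighter probe set differed by 0.54 ± 0.32. MTFR1, a regulator of mitochondrial fission, also lay below background on all 6 arrays (-0.29 ± 0.02, adjusted p = 0.000866). The calls of SIRT5 (without any 1 in vivo array, adjusted p up to 0.0936), PDCD7 (without any array but in vitro replicate 2, up to 0.14), NEFL (without in vivo replicate 1 or 2 or in vitro replicate 1, up to 0.119) and ZNF45 (without any array but in vitro replicate 2, up to 0.124) were lost with single arrays left out. Those of PAPOLA, FER, NFATC3 and MTFR1 held under the same omissions.

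Several lists had 0 calls in either direction and medians near 0, in part because many members lay at background on most arrays. Over all symbols only 0.218% passed as higher and 0.0765% as lower, so 0 calls does not set lists of this size apart. The lists were the cell cycle (38 genes, median -0.01), interferon response (25, 0.00), imprinted genes (22, 0.00), chromatin and DNA methylation (27, -0.03), secreted trophoblast products (23, 0.00), growth factor signalling (39, 0.00), matrix and basement membrane (28, 0.00) and apoptosis (18, 0.01). Genes above background on at least 3 Day 7 arrays made up 4 of the 23 secreted trophoblast products, 6 of the 25 interferon genes, 12 of the 28 matrix genes and 9 of the 18 apoptosis genes. Among those the medians were 0.20, 0.15, 0.21 and 0.36. Members with larger differences included the cyclin gene CCNE2 (1.08 ± 0.36), the pro-apoptotic BAK1 (1.63 ± 0.99), the survival gene BCL2 (1.11 ± 0.40), the receptor gene KIT (-1.15 ± 0.55) and the DNA methylation cofactor UHRF1 (0.96 ± 0.35), with adjusted p from 0.615 to 0.836. DNMT3A and DNMT3B, which set new DNA methylation, differed by -0.21 ± 0.56 and 0.11 ± 0.07.

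**Figure D4:**
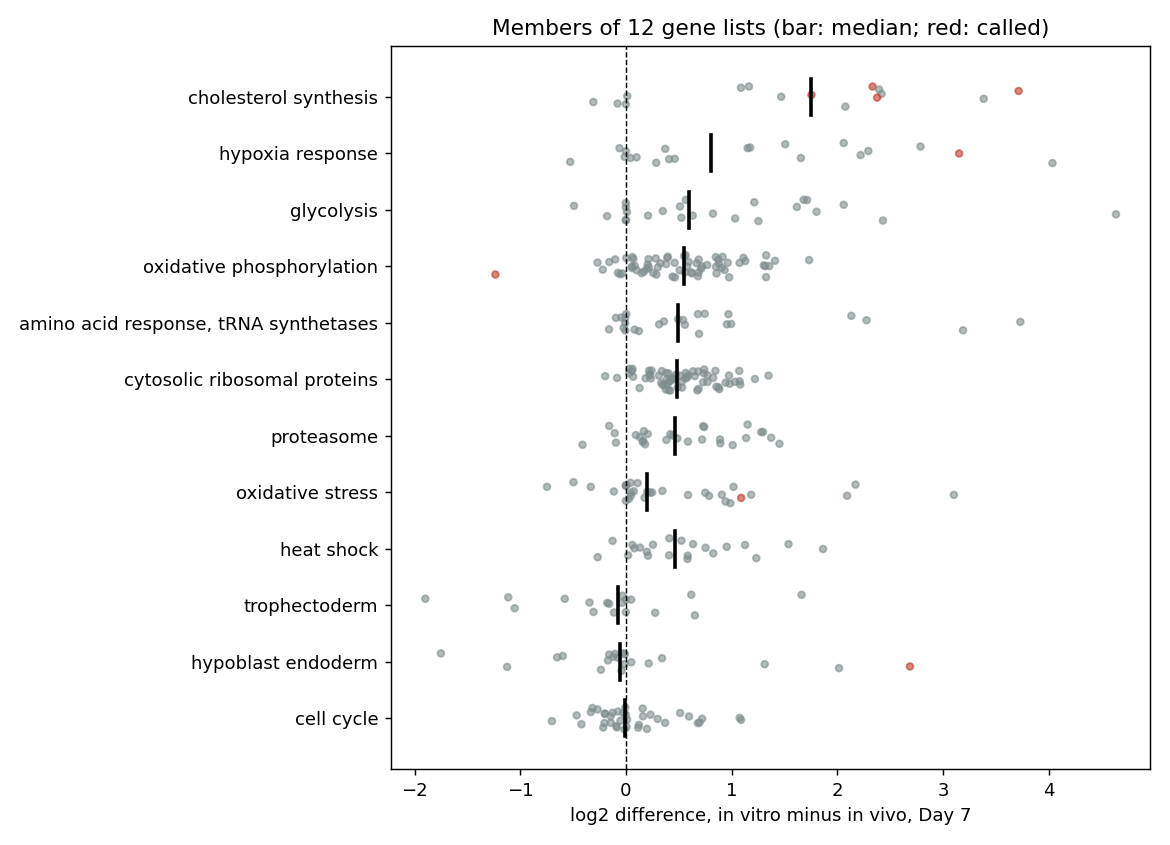
Log2 differences, in vitro minus in vivo at Day 7, of the measured members of 12 gene lists; each dot is a gene, red dots passed an adjusted p below 0.05, the black bar is the list's median and the dashed line the median of all 9155 symbols. Cholesterol synthesis has the highest median shown (1.76) and 4 red dots, and the trophectoderm, hypoblast and cell cycle lists centre near 0.

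The Day 13 pools showed whether the same probe sets still differed after development in recipients. Of the 50 probe sets 24 (48.0%) had the same direction at Day 13, and 2 had a Day 13 difference of 0. The share was 33.0% over all probe sets and 53.9% over those with a difference at both days. Only PAPOLA passed at both days in the same direction, and 0 passed in the opposite direction, against 1.2% called at Day 13 over all probe sets. PAPOLA measured 7.39, 7.41 and 7.17 in Day 13 conceptuses of in vivo origin and 8.56, 8.37 and 8.31 in those of in vitro origin (1.09 ± 0.11, adjusted p = 0.00456). Its difference was nearly the same at both days, with a change between the days of -0.03 ± 0.16.

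CRIPTO came nearest among the lower genes. At Day 13 it measured 11.14, 11.65 and 11.16 with in vivo origin and 10.27, 9.72 and 10.10 with in vitro origin, lower in every pool without passing (-1.28 ± 0.27, adjusted p = 0.0681). The called probe sets of GJA1, PLOD2 and NID2, higher in vitro at Day 7, differed at Day 13 by -0.22 ± 0.38, -0.03 ± 0.39 and 0.12 ± 0.31. The second PLOD2 probe set, at background at Day 7, separated by origin at Day 13 without passing (3.04 ± 0.68, adjusted p = 0.0791). It measured 2.43, 2.96 and 3.84 with in vivo origin and 7.41, 6.53 and 4.40 with in vitro origin, so Day 13 is unsettled for PLOD2. MAEL, FMR1NB, AASS, IL6 and SLC1A4 lay at background in all 6 Day 13 pools. CYP51A1, HMGCS1, FDFT1 and MSMO1 differed at Day 13 by -0.95 ± 0.46, -0.26 ± 0.29, -0.32 ± 0.30 and 0.01 ± 0.24, and none of these passed.

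The change of the origin difference from Day 7 to Day 13 was tested directly and passed for 23 of the 50, where 0.4% of all probe sets passed. That change contains the Day 7 values by which the 50 were chosen, so the count is a description. It fell to 3 with the poly-A spike-in level as a covariate, which averaged 10.9 ± 1.90 (SD, n = 3) in Day 13 arrays of in vitro origin and 14.4 ± 0.18 in those of in vivo origin, and to 14 without Day 7 in vitro replicate 1.

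**Figure D5:**
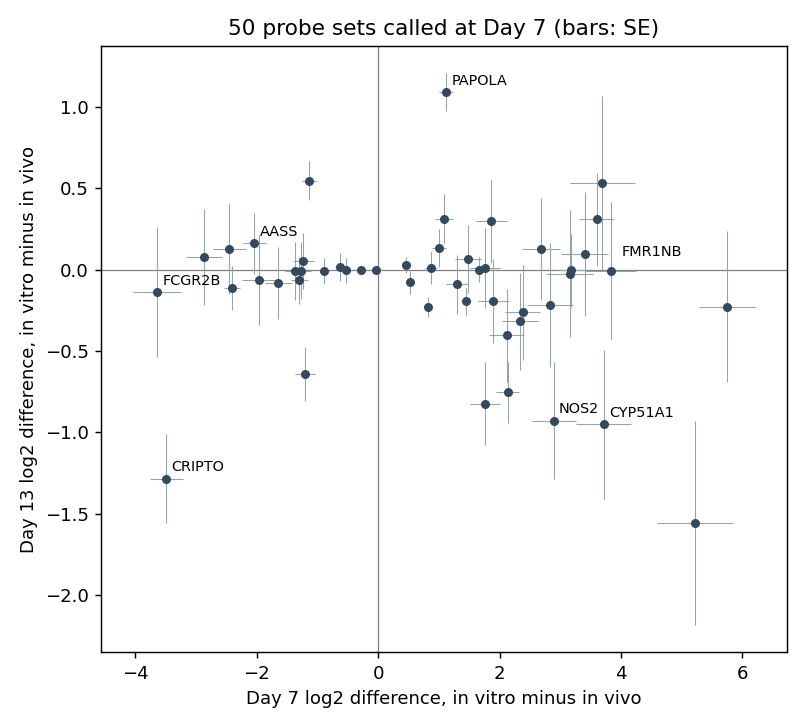
Day 7 against Day 13 log2 differences, in vitro minus in vivo, of the 50 probe sets called at Day 7, with SE bars; the 2 axes have different scales. PAPOLA alone lies high at both days (1.12 and 1.09), and most others lie near 0 on the Day 13 axis.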

How the data were processed

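RNA from 12 pools was measured on Affymetrix bovine arrays. The authors deposited 1 log2 intensity per probe set and array, already normalized and summarised. RMA, GCRMA and limma appear in the submitters' processing notes with no version; whether RMA or GCRMA made the values is not given in the sources used here. The number of arrays limits precision. Groups came from the sample titles.

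A linear model of 4 group means was fitted to all 12 arrays with limma 3.58.1 in R 4.3.3 (lmFit, eBayes without trend; 8 residual and 0.379 prior degrees of freedom). Tests were two-sided, and called means a Benjamini-Hochberg adjusted p below 0.05 over the 24016 probe sets left after removal of 112 controls. Every adjusted p given is limma's, errors of differences are SE, and errors of levels SD. Where all arrays of one origin lay at background, the fold is a bound computed from background, the adjusted p being that of the deposited values. Some probe sets repeated an exact value above that background on several arrays, and differences that include such values were left as fitted. A symbol took its probe set with the highest mean over 12 arrays; symbols came from the platform annotation, updated through gene IDs (13263 probe sets).

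The members, the 43 lists (1060 of 1390 entries measured) and the alternatives were chosen with earlier results of these data known. List counts, medians and summed levels cover all measured members and were not tested. Named genes were all called genes with 1 symbol except 1 placeholder, up to 3 members of each list with the smallest p and a group above background, a fixed set of 38 embryo genes, of which 6 had no probe set of their own, and the 5 genes each way with the largest bound among those above background in one origin only; other members named were chosen after their values were seen. The model fit was tested on simulated data with known changes. Promoter sequences were not analysed here.

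The alternatives were 3 scalings, a background filter, trended and robust priors, a replicate block, 2 array covariates, the 6 Day 7 arrays alone, each Day 7 array left out, other background levels and, chosen after seeing the data, a fit without the Day 13 in vitro arrays.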

Additional observations from a re-analysis of the deposited data

Results flagged for a closer look

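The difference between the origins itself differed between Day 7 and Day 13, by a direct limma test of the change, for 15 named genes. Values are Day 13 minus Day 7 differences of the in vitro minus in vivo contrast, on the log2 scale. All contain the Day 7 values that put most of these genes in the text. Among genes higher in vitro at Day 7, the change was -4.67 for CYP51A1, -2.65 for FDFT1, -2.64 for HMGCS1, -3.82 for NOS2, -3.19 for MAEL, -3.83 for FMR1NB, -1.65 for SLC1A4, -1.06 for IL6 and -0.44 for NFATC3. Among genes lower in vitro at Day 7 it was 2.197 for AASS, 0.88 for CPT1B and 0.28 for MTFR1, and NFATC3, CPT1B and MTFR1 were at or below background on the Day 7 arrays. MAEL, FMR1NB, SLC1A4, IL6, NFATC3, AASS, CPT1B and MTFR1 lay at background in both origins at Day 13. For these genes the change sets the Day 7 difference against values at background.

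Another 3 genes did not pass at Day 7. DKK3, a secreted protein related to WNT antagonists, lay at background in vivo at Day 7 (2.27, 2.99 and 2.99) and at 4.86, 4.45 and 4.60 in vitro, at least 2.37-fold higher (adjusted p = 0.208). At Day 13 it measured 6.56, 5.28 and 6.67 with in vivo origin and lay at background with in vitro origin, and its change was -5.51 (adjusted p = 0.00671). TIMP2, an inhibitor of matrix proteases, differed by 1.19 ± 0.51 at Day 7 and by -3.82 ± 0.51 at Day 13, a change of -5.02 (adjusted p = 0.0324). PRDX4, a peroxiredoxin of the secretory pathway, differed by 0.35 ± 0.10 and -0.50 ± 0.10, a change of -0.85 (adjusted p = 0.0488).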

How the results depend on the processing

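The called probe sets kept their direction under every alternative that tested them except 1 each after quantile normalization and median centring and 2 with ribosomal protein centring. The background filter retained 40 of the 50. The count of calls was 81 among probe sets above background on at least 3 arrays, 29 with the poly-A covariate, 14 with the GAPDH covariate (11 of them among the 50), 13 without the Day 13 in vitro arrays and 3 with the 6 Day 7 arrays alone. It ran from 41 to 116 with single arrays left out. The change between the days passed for 3 of the 50 with the poly-A covariate, and for 14 to 24 with single arrays left out. Same-numbered Day 7 arrays of different origin correlated in their deviations from group means at -0.075, 0.386 and 0.279. Differently numbered ones ran from -0.371 to 0.137. The labels do not say that the numbers pair pools, so the main fit did not use them. A factor shared by same-numbered pools was not tested beyond the replicate block. With that block 12 probe sets were called, all among the 50, and the change between the days passed for 12. Ribosomal protein centring, which lowers all probe sets alike, turned 18 of 43 list medians and 20 of 169 named genes, 2 of them called, NFATC3 (-0.066) and ZNF45 (-0.0034). Others were RPL30 (-0.08), NCL (-0.03), ZAP70 (-0.06) and PRDX4 (-0.19), and the medians of oxidative stress (-0.33), heat shock (-0.063), fatty acid synthesis (-0.43), fatty acid oxidation (-0.40), the amino acid response (-0.038), the proteasome (-0.066) and ribosomal proteins (-0.048), the last fixed near 0 by construction. The GAPDH covariate turned 14 of 43 medians and 27 of 169 named genes, 0 of them called, among them POU5F1 (-0.062), AQP3 (-1.22), SLC2A1 (-0.58) and IFNT2 (-0.90), and the medians of oxidative stress (-0.27), the citric acid cycle and pentose phosphate pathway (-0.49), lysosomes (-0.23), fatty acid oxidation (-0.24), glycolysis (-0.19), oxidative phosphorylation (-0.11) and the proteasome (-0.47). HBG, at -0.27, ran from -1.16 without in vitro replicate 1 to 1.33 (adjusted p = 0.03) without in vitro replicate 2. Apart from the smaller number of arrays or of probe sets tested, the cause was not tested.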

Other observations

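Genes above background in all pools of one origin and at background in all pools of the other numbered 15 for in vitro and 6 for in vivo, of 8949 symbols other than placeholders; 3 and 1 of them passed. The counts were 7 and 6 with background at the 95th percentile of the controls, and 25 and 7 with background raised by 1 on the log2 scale. Besides FMR1NB, PDCD7, MXI1 and DKK3, the in vitro genes with the largest bound included SPTY2D1, at 2.29, 2.72 and 3.08 in vivo and 5.51, 3.84 and 5.09 in vitro (adjusted p = 0.225). Besides CRIPTO and TRIB3, the in vivo genes included LMO2, a haematopoietic transcription cofactor, at 3.54, 4.28 and 5.24 in vivo and 2.24, 2.24 and 2.26 in vitro (adjusted p = 0.0789), ISM1, at 8.67, 3.46 and 4.64 in vivo (adjusted p = 0.681), and MAVS, an adaptor of antiviral signalling, at 3.40, 3.60 and 4.32 (adjusted p = 0.836).

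Single pools stood apart in some gene groups. In vivo replicate 3 had the heat shock protein gene HSPA1A at 14.77 where the other in vivo pools had 9.57 and 8.91, and DNAJB1 at 10.02 where they had 6.56 and 6.28. Its mean over 22 heat shock genes was 11.04 against 9.84 and 9.95. In vitro replicate 2 had the globin genes HBB at 5.08 and HBG at 4.01, where the other in vitro pools had 8.49 and 8.25, and 8.997 and 8.67. Among imprinted genes, PEG3 measured 3.57, 4.73 and 4.81 in vivo and 6.58, 5.52 and 6.69 in vitro (1.89 ± 0.53, adjusted p = 0.421), and NAP1L5 lay at background in each in vitro pool and in vivo replicate 3 but at 5.19 and 4.75 in the other in vivo pools.

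Several of the largest differences belonged to probe sets without a symbol, named here after their values were seen. The probe set with the largest difference of all called lay at 2.82, 2.76 and 2.34 in vivo and 7.88, 7.67 and 9.61 in vitro, at least 31.9-fold higher (adjusted p = 0.00273), and at background in all Day 13 pools. A second, with 1 of 3 in vivo arrays above background, measured 2.86, 2.23 and 4.36 in vivo and 8.33, 8.51 and 8.26 in vitro (5.22 ± 0.63, adjusted p = 0.0229). The third, lower in vitro, measured 7.38, 8.19 and 6.86 in vivo and 4.83, 4.50 and 4.48 in vitro (-2.87 ± 0.30, adjusted p = 0.0128). Its value in in vitro replicate 1, 4.83112, recurred exactly on Day 13 arrays of both origins. Whether it is a lower limit was not tested. In the fit to the 6 Day 7 arrays alone, GALNT1, which starts the addition of sugar chains to proteins, passed with a difference of 1.09 (adjusted p = 0.0195), where the 12-array fit gave 0.387.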
